A study of Xenopus laevis with 6 samples.

Results

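The 2 gene rows named xarp-like.L and xarp-like.S in the deposited read counts of Xenopus laevis gastrulae are described here, out of 45099 gene rows. They were chosen by name and by their lower read counts in dkk embryos, so that their difference between dkk and control embryos is given as a description, with no test. The frog's genome holds an L and an S subgenome, so that many genes come as 2 copies (homeologs), and the suffix names the copy. Polyadenylated RNA was sequenced from 6 single whole embryos of this species, the African clawed frog, at stage 11.5, during gastrulation. The 3 controls were uninjected embryos. The 3 dkk embryos had been given 100 pg of dkk mRNA on the animal side of both cells at the 2-cell stage. Embryos were paired by mating, 1 control and 1 dkk sibling from each of 3 matings, numbered 1 to 3 below. Embryos injected with a control mRNA were not analysed here, so that injection as such and dkk cannot be told apart.

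Dickkopf is a secreted antagonist of canonical Wnt signalling that binds the Lrp5/6 co-receptors. Wnt ligands stabilise β-catenin, which joins Tcf factors on DNA and switches on target genes, some of which encode inhibitors of the pathway itself. In the gastrula, Wnt signalling from the ventrolateral mesoderm patterns mesoderm and the posterior body. The study used dkk to lower Wnt signalling and to look for genes that respond to it at this stage.

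The suffix -like marks a likeness to a gene called xarp and is no identification. Neither row matched a symbol of a RefSeq table for the assembly Xenopus_laevis_v10.1. In that table xarp is an older symbol of 2 genes, axin2.L and axin2.S. axin2 encodes a scaffold of the complex that degrades β-catenin, and it is a feedback inhibitor switched on by Wnt in many vertebrate tissues. The deposited counts hold axin2.L and axin2.S as rows of their own beside the xarp-like rows. No source used here says which protein xarp-like encodes or that it holds ankyrin repeats, and none gives its sequence, so that no role is given to it below.

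Reads assigned to genes numbered 17460820 to 19880568 per embryo. Markers of all 3 germ layers were read, from 4 of 6 mesoderm, 6 of 6 endoderm and 3 of 6 ectoderm genes with a row. The summed level of mesoderm markers was 1075 to 1125 CPM in controls and 520 to 704 CPM in dkk embryos, that of endoderm markers 851 to 1301 CPM and 889 to 1408 CPM, and that of ectoderm markers 514 to 893 CPM and 679 to 1368 CPM. CPM stands for counts per 1000000 reads in genes, with TMM scaling of the libraries. Markers of later tissues, 2 of 6 genes with a row, summed to at most 8.69 CPM. The sum for mesoderm markers was thus lower in the dkk embryos, and a sum can be carried by few genes. The mesodermal gene brachyury was abundant: its copies t.L and t.S had control means of 319 and 501 CPM. Their dkk means were 108 and 230 CPM, and both copies are also in the list of Wnt-induced genes below. The brachyury copies thus held most of the mesoderm sum in controls, and their lower means make up most of its fall. The lower sum is therefore mainly a value of brachyury, and it does not show how the other mesoderm markers changed. In the longer mesoderm list below, the median log2 fold change was -1.10 over 24 copies, those of brachyury among them. How far each of the other marker genes carried the sum was not tested, nor was the part of mesoderm markers in the xarp-like values. In RNA from whole embryos, fewer cells of a type and less RNA per cell cannot be told apart. Reads of dkk1.S, which do not separate injected mRNA from the embryo's own transcript, stood at 11.9, 19.9 and 13.9 CPM in controls 1 to 3 and 511, 473 and 725 CPM in their dkk siblings.

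In control embryos both copies of xarp-like were read at similar levels. The S copy had 3416, 3443 and 3675 reads in controls 1 to 3, or 199, 187 and 186 CPM. The L copy had 3403, 2799 and 2990 reads in the same embryos, or 198, 152 and 151 CPM. The S copy thus lay within a narrow band over the 3 matings, while the L copy stood higher in mating 1 than in matings 2 and 3. By mean CPM in controls xarp-like.S ranked at 987 and xarp-like.L at 1195 among the 21643 genes tested. CPM takes no account of gene length, so that these are ranks of reads and not of transcripts.

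The spread between control embryos differed between the copies. It was 3.82% of the mean in xarp-like.S (coefficient of variation, n = 3), where counting error alone would give 1.69%, and 16.1% in xarp-like.L, where counting error would give 1.81%. Of 2122 other genes with a control mean within 2-fold of that of xarp-like.S, 4.62% had a smaller coefficient of variation, and their median was 15.9%. Around xarp-like.L, 50.3% of 2423 such genes had a smaller one, with a median of 16.01%. Whether the choice of these rows bears on their spread was not tested.

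In dkk embryos both copies were low in every mating. xarp-like.L had 481, 387 and 569 reads in dkk embryos 1 to 3, or 25.8, 21.6 and 25.8 CPM. xarp-like.S had 759, 725 and 1200 reads, or 40.7, 40.4 and 54.4 CPM. For each copy, the highest dkk embryo lay far below the lowest control. Groups with every dkk embryo below every control were found for 2.89% of all genes tested, and since the choice of the rows used this contrast nothing is read from that. The L copy was nearly even over the dkk embryos, and the S copy was higher in dkk embryo 3 than in the other two.

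**Figure D1:**
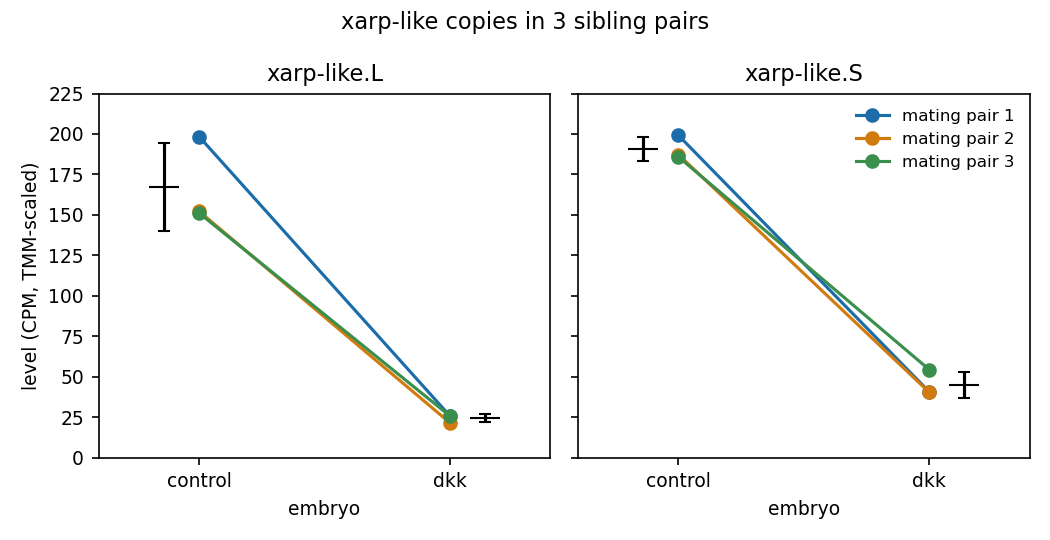
Level of each xarp-like copy (CPM, TMM-scaled, y axis) in control and dkk embryos (x axis); each line joins the siblings of 1 mating pair, and the black marks beside the points are the mean and SD of 3 embryos. Controls sit at 151 to 199 CPM and dkk embryos at 21.6 to 54.4 CPM, with no overlap between groups in either copy.

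Over the pairs, xarp-like.L went from 167 ± 26.9 CPM in controls to 24.4 ± 2.4 CPM in dkk embryos (SD, n = 3 each). This was a 6.83-fold lower level (log2 fold change -2.77 ± 0.13, SE derived from the F statistic of the paired edgeR fit). xarp-like.S went from 191 ± 7.28 CPM to 45.2 ± 8.004 CPM, a 4.26-fold lower level (log2 fold change -2.09 ± 0.14, SE). With reads of both copies added up, the log2 fold change was -2.37. Lower at an adjusted p of 0.05 in the same fit were 0.467% of the genes tested, 101 in number, and higher 0.106%, 23 in number (edgeR's quasi-likelihood test, Benjamini-Hochberg adjusted). By depth of the fall, passed or not, the L copy ranked at 33 and the S copy at 80 among all 21643 genes tested. These ranks are a description, since the choice of the rows used this contrast. In the authors' deposited table of 97 genes, labelled as DESeq results, the log2 fold changes were -2.37 ± 0.21 (lfcSE) for xarp-like.L and -1.79 ± 0.21 for xarp-like.S. The sources used here do not give the design or version of that fit.

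Pair 3 showed the smallest difference in both copies. xarp-like.L in the dkk embryo stood at 13.0% of its control sibling in pair 1 (95% counting interval 11.8% to 14.3%), at 14.1% in pair 2 (12.7% to 15.7%) and at 17.1% in pair 3 (15.6% to 18.7%). xarp-like.S stood at 20.4% (18.9% to 22.1%), 21.6% (19.9% to 23.4%) and 29.3% (27.4% to 31.2%) in pairs 1 to 3. For the S copy the interval of pair 3 lay above those of pairs 1 and 2. For the L copy it lay above that of pair 1 and overlapped that of pair 2. The intervals are exact, cover counting error only, and leave out how embryos of 1 mating differ. On the log2 scale pair 3 was 0.33 above the mean of pairs 1 and 2 for the L copy and 0.48 above it for the S copy. With 1 embryo per group and mating, a difference between matings and one between single embryos cannot be told apart.

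Dkk embryo 3, with the most xarp-like.S of the dkk embryos, also had the most dkk1.S reads, 15993 against 9526 and 8491 in dkk embryos 1 and 2. The relation between these levels was not tested. The Wnt-induced transcription factor copy sp5.L and the other dkk1 copy also had their smallest difference in pair 3: sp5.L stood at 0.731%, 1.59% and 6.69% of control in pairs 1 to 3, and dkk1.L at 18.6%, 12.2% and 51.8%. The other sp5 copy did not share this. sp5.S stood at 0.702%, 1.17% and 1.07%, highest in pair 2, on 3, 2 and 3 reads in the dkk embryos. The copies of axin2 differed in this: axin2.S stood at 0%, 6.77% and 7.39%, highest in pair 3 on at most 8 reads per dkk embryo, and axin2.L at 2.02%, 5.88% and 1.53%, highest in pair 2. Brachyury, the pan-mesodermal T-box gene, stood at 34.7%, 33.7% and 33.2% in t.L, highest in pair 1, and at 47.3%, 42.8% and 47.6% in t.S, highest in pair 3 with pair 1 within counting error of it. Among the 101 genes that fell, the smallest fall was in pair 1 for 26, in pair 2 for 40 and in pair 3 for 35.

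**Figure D2:**
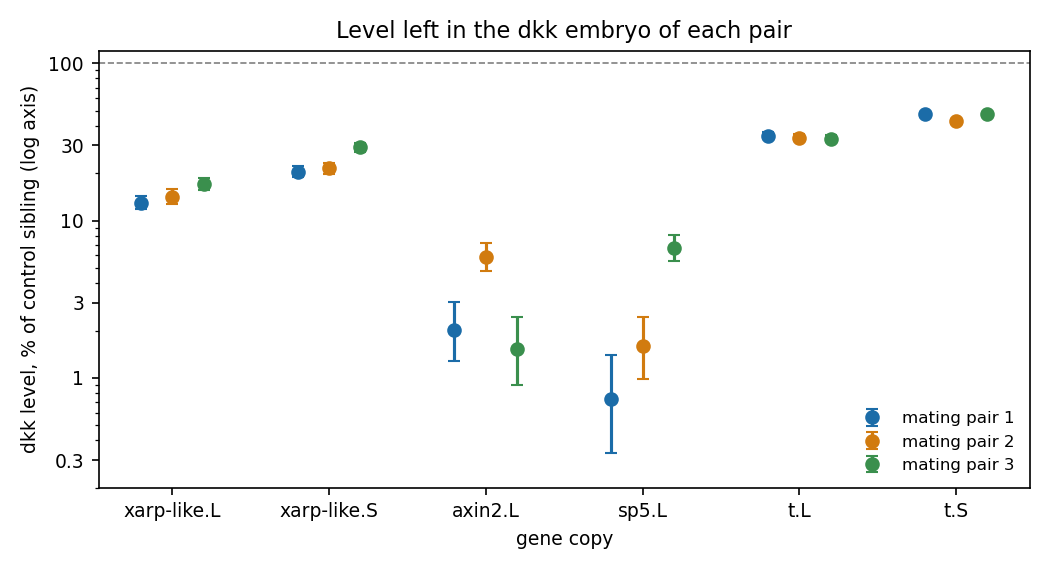
Level left in the dkk embryo as a percentage of its control sibling (log axis) for xarp-like and genes set beside it; points are the 3 mating pairs, bars are exact 95% counting intervals and the dashed line is 100%. Both xarp-like copies were highest in pair 3, as were sp5.L and, by little, t.S, while axin2.L was highest in pair 2 and t.L in pair 1.

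Between matings, with the dkk effect in the model, neither copy differed past the threshold. The mating term of xarp-like.L had an adjusted p of 0.253 and that of xarp-like.S one of 0.519 (edgeR quasi-likelihood test of both mating coefficients, Benjamini-Hochberg adjustment). The log2 level of xarp-like.L was -0.32 in mating 2 and -0.20 in mating 3 relative to mating 1, and that of xarp-like.S was -0.05 and 0.16. Across all genes tested, 22.2% had an adjusted p under 0.05 for this term, which makes differences between matings common in these embryos. Missing the threshold does not show that the copies were equal between matings.

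The L copy gave a smaller share of xarp-like reads in dkk embryos than in their control siblings, in each pair. It was 49.9% (exact 95% interval 48.7% to 51.1%), 44.8% (43.6% to 46.1%) and 44.9% (43.7% to 46.1%) in controls 1 to 3. In dkk embryos 1 to 3 it was 38.8% (36.1% to 41.6%), 34.8% (32.0% to 37.7%) and 32.2% (29.99% to 34.4%). The share was 46.5 ± 2.92% in controls and 35.3 ± 3.33% in dkk embryos (SD, n = 3 each). This share follows from the dkk change of each copy and is given with no test. The log2 ratio of L to S reads was -0.88 ± 0.21 in dkk embryos (SD, n = 3) and -0.54 ± 0.41 over all 6 embryos, both also given with no test. In the 3 controls alone it was -0.20 ± 0.17 and below 0 in 3 of 3 (exact two-sided sign-flip permutation test, p = 0.25, the smallest possible with 3). In control 1 the copies were even within counting error. Reads with more than 1 alignment, 15.9% to 17.6% of counted reads, went to no gene, and lengths of the copies were not used here, so that a ratio of reads need not be a ratio of transcripts.

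**Figure D3:**
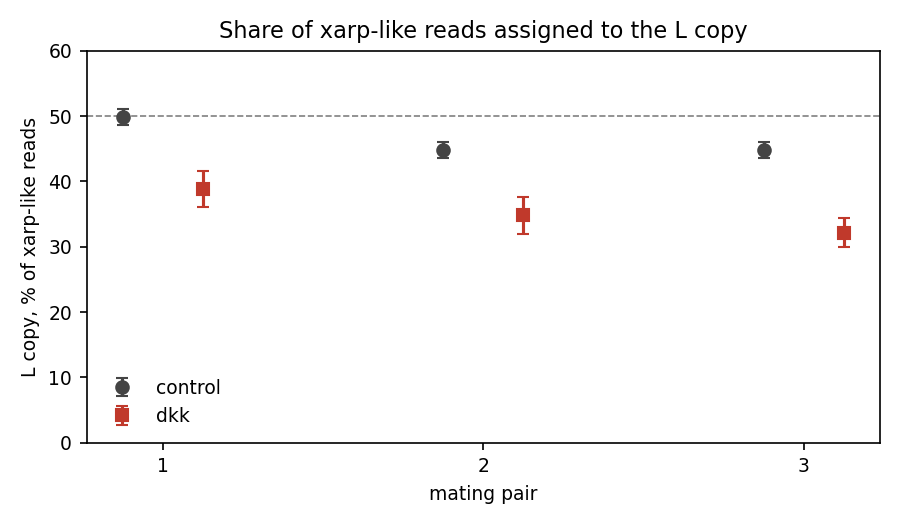
Share of xarp-like reads assigned to the L copy (%, y axis) in the control and dkk embryo of each mating pair (x axis); bars are exact 95% binomial intervals and the dashed line marks 50%. The dkk embryos lie at 32.2% to 38.8%, each below its control sibling.

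Unequal change of copies was also seen in other genes. Both copies were tested for 4548 other genes, and both fell for 16 of them, while for 24 a single copy fell. The L copy had the deeper fall in 13 of the 16, but this was not counted over all 4548, so that nothing is read from it. The 16 were picked because both copies fell, so that their differences and those of all 4548 are not like for like. The log2 fold change of L minus that of S was -0.68 for xarp-like, against a median absolute difference of 0.62 over the 16 and 0.18 over all 4548. In 6 of the 16 the copies differed by more, among them the Dickkopf receptor gene kremen2 (-3.44), the zinc finger gene znf703 (-1.19) and the Notch ligand gene dlc (1.37). axin2, with -0.63, lay close to xarp-like by this measure, though its L copy held 92.2% of its control reads. The L share of control reads was 46.6% for xarp-like and had a median of 53.2% over the 4548 genes, with quartiles of 35.2% and 71.5%.

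**Figure D4:**
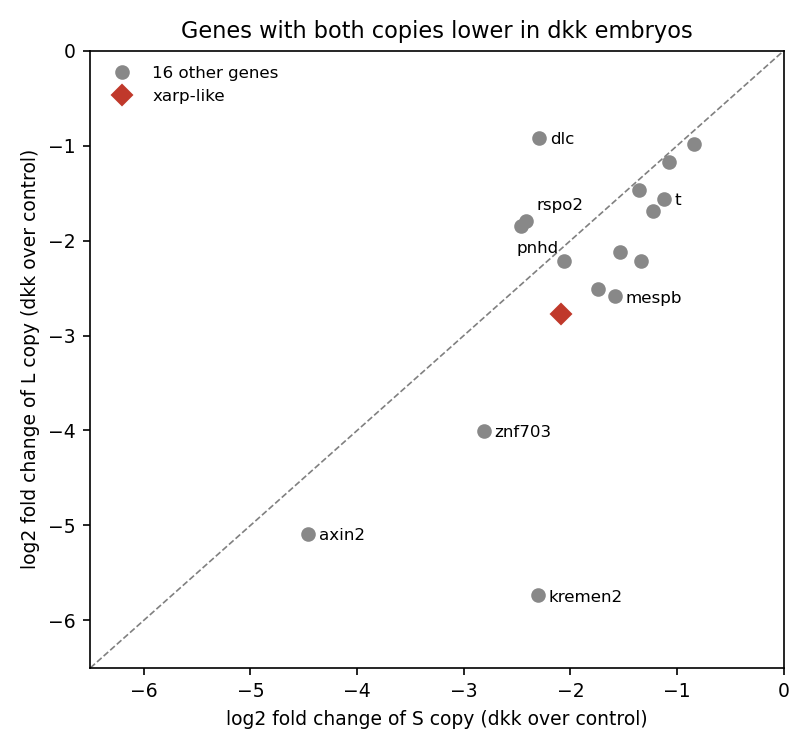
Log2 fold change (dkk over control) of the L copy (y axis) against that of the S copy (x axis) for the 16 other genes in which both copies fell and for xarp-like; points below the dashed line of equality have the deeper fall in L. xarp-like lies below the line, at -2.77 for L and -2.09 for S.

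Set beside axin2, xarp-like kept more of its reads in dkk embryos. axin2.L had 1049, 1723 and 1052 reads in controls 1 to 3 and 23, 99 and 18 in dkk embryos, and axin2.S had 106, 121 and 97 reads and 0, 8 and 8. A count of 0 allows an expected count of up to 3 reads. The log2 fold changes were -5.09 ± 0.42 for axin2.L and -4.46 ± 0.63 for axin2.S (SE; adjusted p = 0.0125 and 0.0428, edgeR with Benjamini-Hochberg adjustment). In every pair the percentage of control left was lower in both axin2 copies than in both xarp-like copies. The call of axin2.S was lost without pair 2 (adjusted p = 0.164, edgeR) and without pair 3 (0.0532). axin1, the paralogue of axin2 that is expressed broadly and is no general Wnt target, did not pass: its log2 fold changes were 0.39 ± 0.23 in axin1.L and -0.36 ± 0.15 in axin1.S (adjusted p = 0.771 and 0.629, edgeR). Levels of axin2, axin1 and xarp-like are not compared with one another, since their lengths were not used.

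The genes with the profile most like that of xarp-like were sought among tested genes with a symbol. Likeness was the root mean square difference of log2 CPM, each gene centred on its own mean over the 6 embryos. Since the profiles are set mostly by the step between controls and dkk embryos, the list is a description of genes with a similar fall. Nearest to xarp-like.L were lpl.S, a lipoprotein lipase copy, at a difference of 0.19, the muscle determination gene copy myf5.L at 0.22 and znf703.S at 0.33. xarp-like.S came next at 0.37, followed by pnhd.S, rspo2.S, fgf14.L, myo3b-like.1.L, cdx1.L and pnhd.L, at up to 0.50. Mean levels of lpl.S, fgf14.L and myo3b-like.1.L were only 1.82, 1.28 and 1.87 CPM in controls and 0.18, 0.22 and 0.25 CPM in dkk embryos. At so few reads the prior count of 2 shrinks log2 differences, so that the places of these 3 in the list depend on it. pnhd (pinhead) encodes a secreted protein, rspo2 an R-spondin that amplifies Wnt signalling and cdx1 a caudal-type factor of the posterior body. Nearest to xarp-like.S was pnhd.L at 0.18, followed by tmcc3.L at 0.26, fgf14.L at 0.28, t.L at 0.31 and myf5.S at 0.31. The next were pnhd.S, the Iroquois homeobox copy irx3.S, myf5.L, tcf7.S, a copy of a Tcf factor gene, and zadh2.L at 0.35.

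pnhd.L showed the same size of fall in all pairs, with log2 ratios of -1.83, -1.83 and -1.88, from 194 ± 14.96 CPM to 53.9 ± 3.14 CPM (SD, n = 3 each). pnhd.S had -2.53, -2.91 and -1.96, and so its smallest fall in pair 3, as xarp-like has. tcf7.S, with -1.81, -1.40 and -1.08, and tmcc3.L, with -1.88, -1.72 and -1.31, were also weakest in pair 3. myf5.L, with -2.58, -2.26 and -2.66, was not. Of the other neighbours, lpl.S, rspo2.S, fgf14.L, cdx1.L, irx3.S and zadh2.L were weakest in pair 3, and znf703.S, myo3b-like.1.L, t.L and myf5.S were not. The neighbours were picked by likeness over all embryos, those of pair 3 included, so that nothing is read from a shared weak pair. fgf14.L and zadh2.L did not pass the threshold (adjusted p = 0.0961 and 0.0813, edgeR with Benjamini-Hochberg adjustment), and the other neighbours, apart from xarp-like itself, fell. Without pair 2 the calls of lpl.S, rspo2.S, myo3b-like.1.L, cdx1.L, tmcc3.L, myf5.S, irx3.S and tcf7.S were lost, without pair 1 that of irx3.S and without pair 3 that of myo3b-like.1.L.

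**Figure D5:**
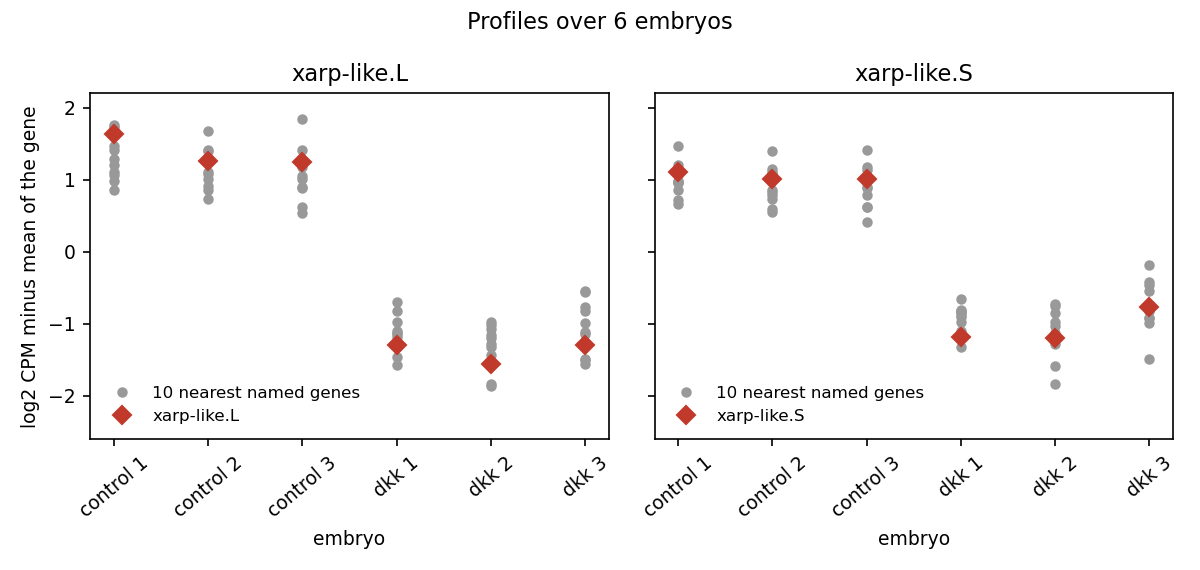
Log2 CPM minus the mean of the gene (y axis) in each embryo (x axis) for xarp-like.L and xarp-like.S (diamonds) and the 10 named genes nearest to each (grey points). Diamonds and grey points are above 0 in all controls and below 0 in all dkk embryos, and xarp-like.S stands higher in dkk embryo 3 than in dkk embryos 1 and 2.

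Both xarp-like copies were set beside a list of genes that Wnt is known to switch on or that feed back on the pathway. This list and those below were chosen with earlier results of these data known, so that their counts are a description. In each, the L and S copies of a gene are counted apart. Neither xarp-like copy belongs to the Wnt list, and both lay below its median. Among its 39 tested copies 17 fell and 1 rose, and 21 did not pass, with a median log2 fold change of -1.12 against -0.00131 over all genes tested, of which 0.467% fell. The 1 that rose was dkk1.S. An unadjusted p under 0.05 in either direction was met by 29 of the 39 with edgeR. DESeq2 called 22 falls and 2 rises there, and limma-voom 20 falls and 1 rise. In this list 9 copies had a lower log2 fold change than xarp-like.L and 12 a lower one than xarp-like.S, whether or not they passed. Over all 21643 genes tested these counts were 32 and 79. sp5.S, at -6.69, znf703.L, at -4.00, and znf703.S, at -2.81, fell further than xarp-like.L, and t.L, at -1.56, less than xarp-like.S. The other copy of sp5, sp5.L, at -5.30, did not pass (adjusted p = 0.141, edgeR).

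Of 18 tested copies of core pathway components 0 fell, 3 rose and 15 did not pass, with a median of -0.05. With 0.467% of all genes lower, 0 falls among 18 is no result about this list; higher were 0.106% of all genes. DESeq2 and limma-voom also called 0 lower, and 6 of the 18 had an unadjusted p under 0.05 in either direction with edgeR. The 3 were tcf7l1.L, which encodes a Tcf repressor, at 0.67, and the Frizzled receptor copies fzd8.S and fzd8.L, at 0.95 and 1.00. tcf7l1.S, at 0.62, missed the threshold (adjusted p = 0.0506, edgeR). None of the 3 passed when pair 2 was left out, and tcf7l1.L did not pass without pair 1 either.

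Of 33 tested Notch pathway copies 4 fell, 0 rose and 29 did not pass, with a median log2 fold change of -0.08, where 0.467% of all genes were lower. The 4 were hes6.1.L and hes6.1.S, of the Hes family of repressors, at -1.69 and -1.22, and the ligand copies dlc.L and dlc.S, at -0.92 and -2.29. dlc.L no longer passed without pair 2 and dlc.S no longer without pair 3. With edgeR 8 of the 33 had an unadjusted p under 0.05 in either direction. DESeq2 called 5 falls and 0 rises in the Notch list, and limma-voom 3 falls and 0 rises. Of 87 tested copies of genes known for ankyrin repeats, a helical module that binds other proteins, 0 passed with edgeR and the median was -0.08. Over all genes 0.467% were lower and 0.106% higher, so that 0 of 87 is near the background. An unadjusted p under 0.05 was met by 5 of them; with DESeq2 2 fell, and with limma-voom 0. The smallest p-values were those of ripk4.L and ripk4.S, at log2 fold changes of -0.52 and -0.69, then rai14.L at -0.47 and nfkbia.S at -0.92. Neither copy of xarp-like was counted in any list.

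In lists for the germ layers, 7 of 24 mesodermal copies fell, against 0.467% of all genes, 0 rose and 17 did not pass, with a median of -1.10. t.L, t.S, myf5.L and myf5.S were among the 7, and 2 of the 24 copies had a deeper log2 fold change than xarp-like.L. The count of falls was 3 without pair 2 and 14 without pair 3. An unadjusted p under 0.05 in either direction was met by 17 of the 24 with edgeR. DESeq2 called 11 falls and 2 rises among the mesodermal copies, and limma-voom 11 falls and 0 rises. Of 16 endodermal copies 0 passed with edgeR, with 3 at an unadjusted p under 0.05. With 0.467% of all genes lower and 0.106% higher, 0 of 16 is near the background. The DESeq2 test gave 1 fall and 1 rise there, and limma-voom 0 calls. Without pair 3 edgeR called 3 falls, and with no filter 1 rise. Their median log2 ratio went from -0.50 in pair 1 and -0.21 in pair 2 to 0.49 in pair 3. The smallest p-values there were those of gata6.S, cer1.S, foxa2.L and cer1.L. Of 16 ectodermal copies the epidermal p63 copy tp63.S fell (-2.71) and the keratin copy krt18.S rose (0.80), the latter not without pair 2. Over all genes 0.467% were lower and 0.106% higher. With edgeR 8 of the 16 had an unadjusted p under 0.05. DESeq2 called 3 falls and 1 rise there, and limma-voom 1 fall and 1 rise. grhl3.L and gmnn.S, at -0.67 and -0.65, did not pass. Of 8 copies of later, neurula-stage genes 0 passed with edgeR, 1 with an unadjusted p under 0.05, and DESeq2 and limma-voom called 0; twist1.L, rax.S, tubb2b.L and tubb2b.S had the smallest p-values. At the shares over all genes, 0 of 8 is also near the background.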

How the data were processed

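Per the submitters' processing notes, reads were processed with TopHat2, SAMtools and HTSeq; the sources used here give no version, setting, genome build or annotation. The authors deposited raw, unnormalized read counts, 1 file per embryo, and their own comparison for 97 genes, labelled as DESeq results. Its columns, per the file headers, are baseMean (a signal, the mean normalized count), log2 fold change, lfcSE, stat (a score), p-value and padj. Lines without a gene name were not used. Of the counted reads, 7.58% to 8.80% overlapped no counted feature, 2.03% to 2.19% were ambiguous and 15.9% to 17.6% aligned more than once. Row names matched a RefSeq symbol for 12007 of 45099 rows.

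All genes were fitted in edgeR 4.0.16 (R 4.3.3) with TMM scaling, filterByExpr (minimum count 10, total 15), robust quasi-likelihood F tests and the mating pair as a block, which the series' design text gives. Benjamini-Hochberg adjustment ran over 21643 genes, with 0.05 as threshold. Deviations from group means correlated at 0.674, 0.552 and 0.622 within pairs 1 to 3. No libraries were alike within sampling noise. A prior count of 2 was used for pair log2 ratios. The SE of an edgeR log2 fold change was derived as its absolute value over the square root of its F statistic. Exact intervals (95%) came from SciPy 1.17.1. The fits were tested on simulated data.

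The members and lists were chosen with earlier results of these data known. Named were both xarp-like copies, dkk1, axin2, sp5 and t, the 10 nearest genes with a symbol per copy (identifiers such as LOC numbers left out) and the members with the smallest p in each list, up to 4. nrarp, also to be named, had no row under that name. axin1 was added after the RefSeq entry for xarp was seen, as were the genes named for unequal copies. Tried as alternatives were no block, DESeq2 1.42.0 size factors and test, upper-quartile scaling, limma-voom (limma 3.58.1), other filters, summed copies and each pair left out.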

Additional observations from a re-analysis of the deposited data

How the results depend on the processing

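The dkk change of xarp-like.L ran from -2.88 to -2.69 and that of xarp-like.S from -2.24 to -1.997 on the log2 scale over all alternatives with separate copies, the ends set by leaving out pairs; with L and S reads summed it was -2.37. Leaving out pairs gave 58 to 659 genes called in the dkk comparison, against 124, with 58 without pair 2 and 659 (327 lower, 332 higher) without pair 3. That count was 14 without the replicate block, 388 with DESeq2 and 343 with no filter. The fit without the block called 4 falls in the Wnt feedback list and 0 in the Notch list, and summed copies gave 8 and 2. Leaving out pairs gave 12 to 21 and 3 to 4. The ankyrin repeat list had 2 falls with DESeq2, with no filter and without pair 3, against 0. The mating term of both copies stayed above the threshold under every alternative run, at adjusted p-values down to 0.0995 for xarp-like.L, without pair 3. The mean log2 ratio of L to S reads was -0.64 to -0.47 when pairs were left out, -0.20 in controls alone and -0.54 over means of pairs. Taking all 6 embryos as separate values passed the threshold (exact sign-flip permutation p = 0.03125), but siblings are paired, dkk embryos entered the choice of the rows, and means of pairs and controls alone gave 0.25, the smallest possible with 3; the p of 6 embryos supports nothing here. Causes of these shifts were not tested. The block changed no direction of either copy. Depth limits little here: the lowest xarp-like count was 387 reads.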
